A study of Mus musculus with 8 samples.

Results

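In the mouse melanocyte line melan-Ink4a-Arf-1 (melan-a), 712 of 36655 H3K27ac regions (1.94%) overlapped a region called for H3K27me3. These dual-marked regions were chosen from the peak positions of the histone libraries. Peaks of replicate 1 and replicate 2 of one antibody that had 1 bp or more in common were joined, and a joined region was kept if both replicates were in it. An H3K27ac region was called dual-marked if it shared at least 1 bp with such an H3K27me3 region. Without chromosome 6, which held many of them, 444 of 34053 H3K27ac regions (1.30%) were dual-marked. Counted from the other mark, 598 of 30517 H3K27me3 regions (1.96%) held at least 1 dual-marked region. Since the positions of both marks made the choice, these shares and the enrichment of both marks are given as a description with no test.

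Acetylation of lysine 27 of histone H3 is written by the acetyltransferases CBP and p300 and is found at active promoters and enhancers. Trimethylation of the same lysine is written by EZH1 or EZH2 within Polycomb repressive complex 2 and is found at repressed genes, many of them developmental regulators. A lysine can carry only one of these groups at a time. Where both marks are present at a sequence in a bulk ChIP, they are therefore on different histone tails. These may lie in the same nucleosome, on different alleles or in different cells. A peak may also be called where its mark is absent, and peak lists cannot tell these cases apart. SOX10, the third protein profiled, is a DNA-binding regulator of neural crest cells, on which the melanocyte lineage depends.

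The data were ChIP-seq peak lists of 3 antibodies, against H3K27ac, H3K27me3 and SOX10, with 2 libraries each. All libraries, inputs included, came from this single immortalised line, which was made from embryonic skin of mice with the genotype Cdkn2a tm1RDp/tm1RDp and was grown with 200 nM of the phorbol ester TPA and 200 pM cholera toxin. The labels' protocols describe the libraries of an antibody as independent experiments, without saying whether these were separate cultures. No group differed in genotype, treatment or time, so the comparisons below are between classes of regions within the same cells. The melanocyte identity of the cells was not checked against marker genes, because no annotation of the mm9 build, to which all positions refer, was used here.

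The H3K27ac libraries kept 45583056 and 44416913 tags, the H3K27me3 libraries 67060647 and 71987481, the SOX10 libraries 6440395 and 8985699, and their inputs 42782172 (histone marks) and 12059585 (SOX10). The authors called 70427 and 74680 H3K27ac peaks, 79632 and 70617 H3K27me3 peaks and 6409 and 9613 SOX10 peaks in replicates 1 and 2. The same rule gave 4159 SOX10 sites. H3K27me3 replicate 1 stood apart at acetylated regions. Of all H3K27ac regions, 1160 (3.16%) overlapped an H3K27me3 peak of replicate 1 and none of replicate 2, 224 (0.611%) overlapped one of replicate 2 and none of replicate 1, and 559 (1.53%) overlapped peaks of both. Without chromosome 6 these classes held 1038 (3.05%), 133 (0.391%) and 349 (1.02%). The counts, the shares on chromosome 6, the acetylation fold, the neighbours and the SOX10 shares are therefore also given with each H3K27me3 library alone.

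The number of dual-marked regions depended on which library entered. Of the peaks of H3K27ac replicate 1, 4.42% overlapped a peak of H3K27me3 replicate 1 and 2.28% a peak of H3K27me3 replicate 2. Of the peaks of H3K27ac replicate 2, 5.02% overlapped H3K27me3 replicate 1 and 2.67% overlapped H3K27me3 replicate 2. The mean over the 4 library pairs was 3.60% ± 1.33 (SD, n = 4 pairs of libraries, which share libraries). The H3K27me3 library set this spread, since both pairs with its replicate 1 lay above both pairs with its replicate 2. On chromosome 6 the pairs gave 13.1%, 11.7%, 14.4% and 12.7% in the same order, and on all other sequences together 3.79%, 1.59%, 4.34% and 1.95%. With all peaks of one H3K27me3 library as regions, 783 H3K27ac regions (2.14%) were dual-marked without H3K27me3 replicate 1 and 1719 (4.69%) without H3K27me3 replicate 2. With all peaks of one H3K27ac library as regions, there were 1864 (2.50%) without H3K27ac replicate 1 and 1474 (2.09%) without H3K27ac replicate 2.

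Chromosome 6 held 268 of the 712 dual-marked regions. Of its 2602 H3K27ac regions, 10.3% were dual-marked (Wilson 95% interval 9.19 to 11.5%; all such intervals here cover counting error only). Over the other numbered chromosomes the share ran from 0.460% (5 of 1087, chromosome 19) to 1.94% (36 of 1857, chromosome 1), with a median of 1.37%. The chromosomes with the next most dual-marked regions were chromosome 11, with 58 of 3258 (1.78%), and chromosome 2, with 37 of 2853 (1.30%). With the peaks of one H3K27me3 library as regions, 12.8% of H3K27ac regions on chromosome 6 and 4.07% elsewhere overlapped H3K27me3 replicate 1, and 11.6% and 1.42% overlapped H3K27me3 replicate 2. Chromosome X held 1 dual-marked region among 29 H3K27ac regions, a share that the depth of 29 regions places only between 0.611% and 17.2%.

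The higher share on chromosome 6 was spread along its length. In 10 windows of 15 Mb the share ran from 5.26% (15 of 285 H3K27ac regions, between positions 135000001 and 150000000) to 17.4% (45 of 258, between positions 60000001 and 75000000), so every window lay above every other numbered chromosome. Calls of H3K27me3 were also dense there, with 5995 of the 30517 H3K27me3 regions, and 193 of these (3.22%) held a dual-marked region. Counted in this way chromosome 6 did not stand apart, since the share was 3.27% (32 of 979) on chromosome 8 and 2.51% (33 of 1317) on chromosome 17. The input background under H3K27ac peaks, expressed relative to the median of the whole list, had a median of 1.30 and 1.32 in replicates 1 and 2 on chromosome 6, against 0.980 to 1.03 and 0.974 to 1.03 on the other numbered chromosomes. The H3K27me3 peaks were called with the local background off, so these calls were not corrected for the input at the site. The part of this higher input in the result was not tested.

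**Figure D1:**
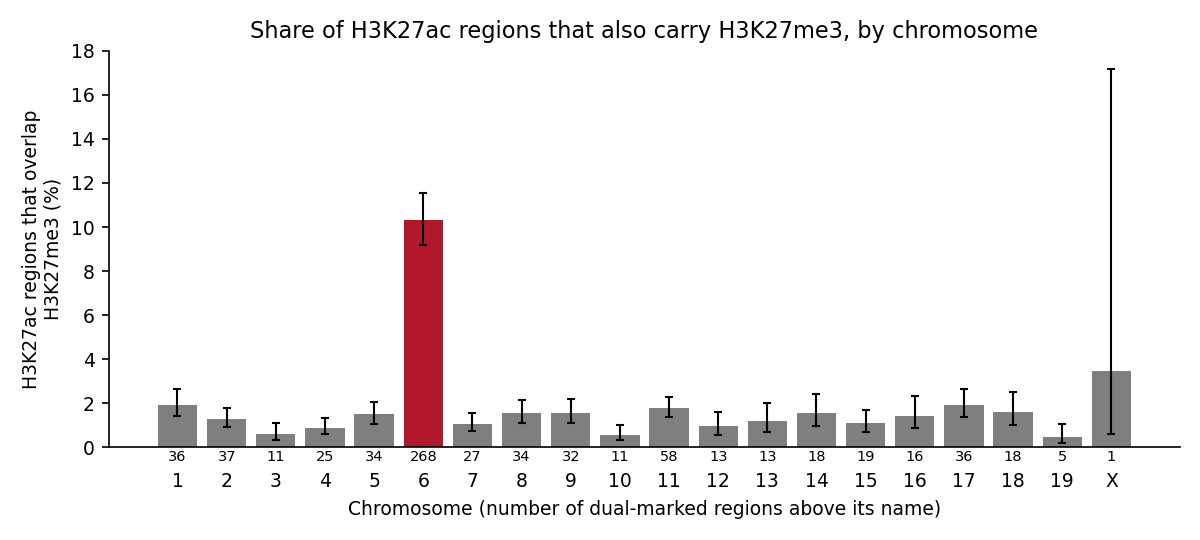
Share of H3K27ac regions that overlap an H3K27me3 region (y axis, percent) for each chromosome (x axis), with Wilson 95% intervals as bars and the number of dual-marked regions printed with each name. Chromosome 6 stands at 10.3%, while the other numbered chromosomes lie between 0.460% and 1.94%.

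With peaks of both replicates merged, most dual-marked regions lay wholly within an H3K27me3 region. In 519 of 712 (72.9%, 69.5 to 76.0%) the whole H3K27ac region was inside the H3K27me3 region. Another 186 (26.1%, 23.0 to 29.5%) lay across an edge of it, and 7 (0.983%) enclosed a whole H3K27me3 region. On chromosome 6 the shares were 66.4% inside, 32.5% at an edge and 1.12% enclosing. Without chromosome 6 they were 76.8%, 22.3% and 0.901%. The share inside was 35.9% without H3K27me3 replicate 1 and 62.2% without H3K27me3 replicate 2. In both settings single H3K27me3 peaks took the place of merged ones. With H3K27me3 replicate 2 alone, most dual-marked regions therefore did not lie inside. The cause of these lower shares was not tested.

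The shared stretches were short. The 2 marks shared a median of 468 bp per region (9 to 2466 bp), and 373489 bp in all, which was 83.6% of the H3K27ac sequence of the dual-marked regions. Around a region that lay inside, the H3K27me3 region went on for a median of 292 bp past its nearer end and 1053 bp past its farther end. H3K27me3 regions that held acetylation measured 1550 bp at the median, and the other 29919 measured 1370 bp. On chromosome 6 these widths were 2371 and 1621 bp, and without it 1379 and 1325 bp. The median dual-marked H3K27ac region was 524 bp wide and the median other H3K27ac region 547 bp, so the 2 classes were of about the same size. Chromosome 6 gave 564.5 bp for dual-marked and 689 bp for other H3K27ac regions, and the rest of the genome 499.5 and 539 bp.

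A stricter reading asks for at least 1 base covered by peaks of all 4 histone libraries. By it, 509 of 712 (71.5%, 68.1 to 74.7%) were covered, and 203 had no such base. Among the 712, 105 overlapped an H3K27me3 peak of replicate 1 only and 51 one of replicate 2 only, and none of these could have one. The covered fraction was 421 of 519 regions inside (81.1%), 81 of 186 at an edge (43.5%) and all 7 that enclosed a region. It was 186 of 268 (69.4%) on chromosome 6 and 323 of 444 (72.7%) without it. Where present, the bases in all 4 libraries came to a median of 257 bp (2 to 1873 bp). The H3K27ac summit, the position of the highest acetylation, lay within H3K27me3 peaks of both replicates in 407 regions (57.2%), of replicate 1 only in 167 (23.5%), of replicate 2 only in 56 (7.87%) and of neither in 82 (11.5%).

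Over the dual-marked regions inside and at an edge, both H3K27me3 libraries had their highest share at the same position, but not at the same height. At the H3K27ac summit of regions that lay inside, 95.4% of positions were in a peak of H3K27me3 replicate 1 and 75.7% in a peak of replicate 2. At 1 kb before the summit the shares were 43.2% and 37.6%, and at 1 kb after it 38.7% and 37.6%. For regions at an edge, drawn with the methylated side to the right, 40.9% and 34.9% of summits were in a peak of replicates 1 and 2, with 70.4% and 80.6% at 500 bp on the methylated side and 10.2% and 8.06% at 500 bp on the other. The falling share away from the summit follows in part from the choice of regions that hold both marks, and it is a description.

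Over all 36655 H3K27ac regions, dual-marked or not, the H3K27me3 libraries had different outlines. In H3K27me3 replicate 1, 4.23% of the H3K27ac summits were in a peak, against 1.51% and 1.56% of positions 1 kb before and after them. In replicate 2, 1.57% of the summits were in a peak, against 1.47% and 1.44% at 1 kb. At 5 kb before and after, the libraries were close, at 3.09% and 3.15% for replicate 1 and 2.98% and 3.04% for replicate 2. Replicate 1 thus had a marked local maximum at the acetylated summit, and replicate 2 had a slight one. At the 35943 regions that were not dual-marked, replicate 1 had 2.72% at the summit, against 0.776% and 0.815% at 1 kb. Replicate 2 had 0.317% there, against 0.790% and 0.712%, so its slight maximum was absent without the dual-marked regions. A low share at these summits follows in part from leaving out regions by their H3K27me3 overlap.

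**Figure D2:**
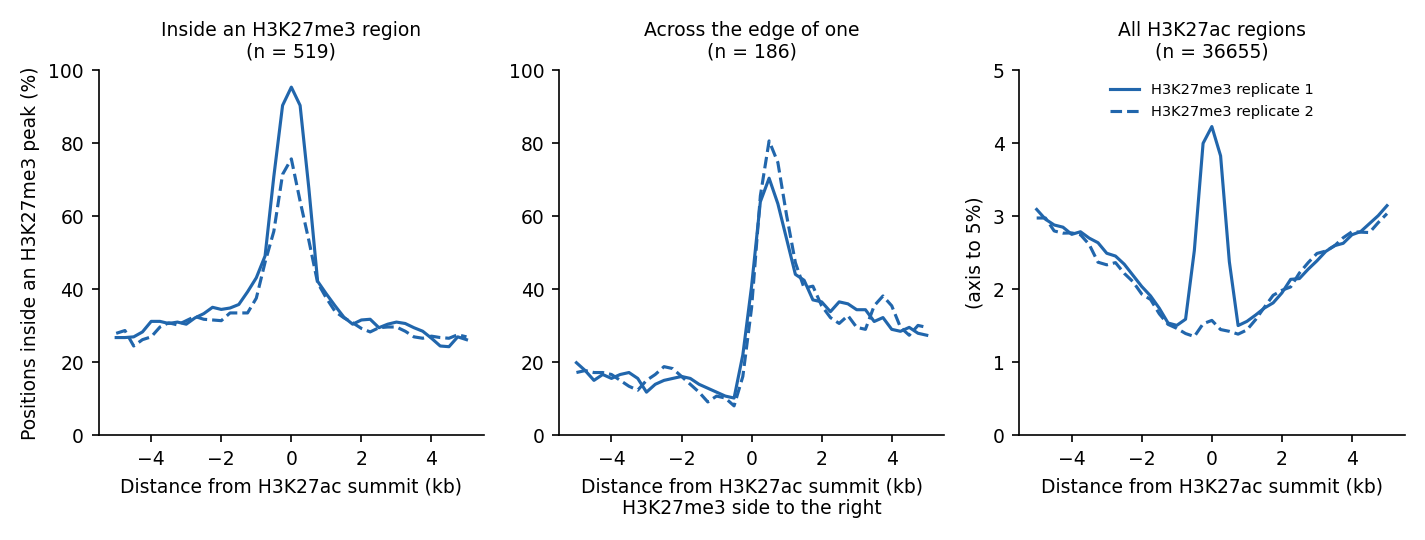
Percent of positions inside an H3K27me3 peak (y axis) by distance from the H3K27ac summit in kb (x axis), for dual-marked regions inside an H3K27me3 region, dual-marked regions at an edge (methylated side to the right) and all H3K27ac regions, whose axis runs to 5%. Over each dual-marked class drawn, the lines of both H3K27me3 replicates are highest at the same position but differ in height. Over all regions replicate 1 stands at 4.23% at the summit and replicate 2 at 1.57%.

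The methylation under dual-marked regions also ranked differently in the 2 H3K27me3 libraries. The H3K27me3 regions that held acetylation had a median fold enrichment, as the authors' peak caller gave it, of 6.12 in replicate 1 and 5.46 in replicate 2, against 5.03 and 5.25 for the other H3K27me3 regions. The H3K27me3 lists were called with the local background off, so this fold is relative to a genome-wide background and is not corrected for the input at the site, unlike that of H3K27ac. On chromosome 6 the medians were 5.90 and 5.90, against 5.25 and 5.46. Without it they were 6.12 and 5.25, against 5.03 and 5.25, so that outside chromosome 6 the higher median was there in replicate 1 and not in replicate 2. The fold of replicate 1 was at least 1.5 times that of replicate 2 in 127 of 598 (21.2%), against 911 of 29919 (3.04%). The opposite held in 5 (0.836%), against 506 (1.69%).

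This imbalance went with acetylation inside the methylated region. Of the 446 H3K27me3 regions that held a dual-marked region wholly inside, 123 (27.6%) had the fold of replicate 1 at least 1.5 times that of replicate 2. Of the 175 with one at an edge it was 7 (4%). The log2 ratio of replicate 1 to replicate 2 had medians of 0.23 for inside and -0.06 for edge, against -0.06 for the H3K27me3 regions without acetylation. It was 0 for the H3K27me3 regions with acetylation on chromosome 6 and 0.19 for those elsewhere. The acetylation had no such imbalance, since the H3K27ac fold had a median log2 ratio of replicate 1 to replicate 2 of -0.02 at dual-marked and 0.03 at other H3K27ac regions.

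The dual-marked regions had a lower median enrichment of acetylation in both H3K27ac libraries. Their median H3K27ac fold was 7.33 in replicate 1 and 7.29 in replicate 2, against 8.74 and 8.57 at the other H3K27ac regions. On chromosome 6 it was 6.91 and 6.74, against 7.39 and 7.13, and without chromosome 6 it was 7.59 and 7.71, against 8.74 and 8.57. The middle 50% of the dual-marked regions ran from 6.36 to 8.43 in the mean of both replicates and that of the others from 7.53 to 9.94, so the classes overlapped widely. When all H3K27ac regions were split into 10 equal classes by their fold, 232 of 3665 (6.33%) were dual-marked in the weakest class and 19 of 3666 (0.518%) in the strongest. Without chromosome 6 these shares were 3.99% and 0.352%. With H3K27me3 replicate 1 alone, 12.7% of the weakest class and 2.59% of the strongest overlapped a peak, and with H3K27me3 replicate 2 alone it was 6.68% and 0.491%. The median H3K27ac fold, as the mean of both replicates, was 7.66 at regions with a peak of H3K27me3 replicate 1, against 8.64 at the rest, and 7.30 at regions with a peak of replicate 2, against 8.63. Width gave no such slope, with 1.75% dual-marked in the narrowest of 10 classes, 2.62% in the fifth and 1.06% in the widest.

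**Figure D3:**
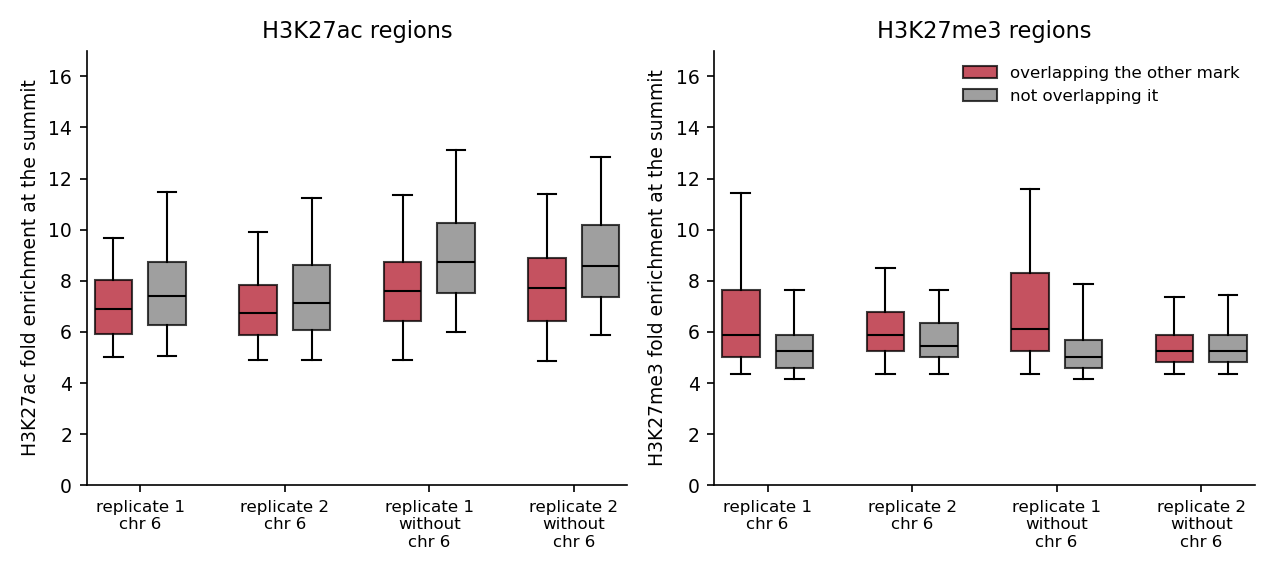
Fold enrichment at the summit (y axis) in each library of H3K27ac (left) and H3K27me3 (right), for regions that overlap the other mark and regions that do not, on chromosome 6 and without it; boxes span the quartiles with the median as a line, and whiskers reach the 5th and 95th percentiles. The H3K27ac fold of the dual-marked regions sits lower in both replicates (medians 7.59 and 7.71, against 8.74 and 8.57, without chromosome 6), and without chromosome 6 the H3K27me3 medians of the regions with acetylation are 6.12 in replicate 1 and 5.25 in replicate 2, against 5.03 and 5.25.

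The input background differed beside this acetylation difference. Under the H3K27ac peaks of dual-marked regions it had medians of 1.21 and 1.23 times that of the list in replicates 1 and 2, against 1.01 and 1.02 under the others. On chromosome 6 both classes were alike, at 1.28 and 1.32 against 1.30 and 1.32. Without chromosome 6 the medians were 1.11 and 1.11, against 1.00 and 1.00. The H3K27ac fold is a ratio to this background, and the part of the input in the result was not tested. In 39 of the 712 dual-marked regions, 31 of them not on chromosome 6, the input was over 2 times the median in either replicate. The share of the other H3K27ac regions above this limit was not computed. Their 95th percentiles were 1.45 and 1.47 in replicates 1 and 2, against 1.92 and 1.99 for the dual-marked regions. Without the 39, 673 dual-marked regions remained (1.84%, with no other H3K27ac region left out). Their median H3K27ac fold, as the mean of both replicates, was 7.38, against 7.30 with the 39.

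Within the dual-marked regions the marks were not of one proportion. The H3K27me3 fold exceeded the H3K27ac fold in 205 of 712 (28.8%), in 103 of 268 on chromosome 6 (38.4%) and in 102 of 444 elsewhere (23.0%). Regions inside had a median H3K27ac fold of 7.21 and a median H3K27me3 fold of 6.34. Regions at an edge had 7.46 and 5.36, and the 7 that enclosed an H3K27me3 region had 9.14 and 4.81. Over all 712, the folds of the marks had a Spearman rho of -0.17, which was -0.07 on chromosome 6 and -0.18 without it. The H3K27ac fold is divided by the input at the region and the H3K27me3 fold is not, so a high input lowers one and not the other, and the value is a description.

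**Figure D4:**
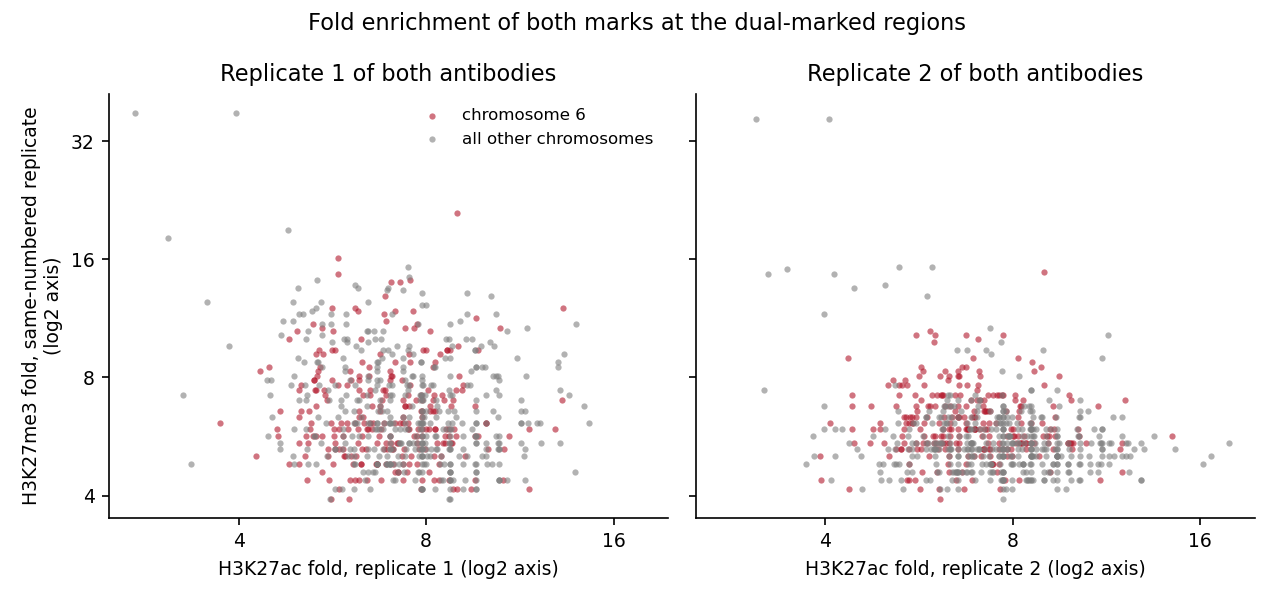
H3K27ac fold (x axis, log2 scale) against H3K27me3 fold (y axis, log2 scale) at each of the 712 dual-marked regions, 1 panel per replicate number, with chromosome 6 in its own colour. Most points have an H3K27ac fold near 7.30 and an H3K27me3 fold near 5.90, and 2 regions of chromosome 11, in the same H3K27me3 region, have H3K27me3 folds of 37.81 and 36.50.

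The longest stretch covered by peaks of all 4 histone libraries was on chromosome 11. At chr11:88828971-88830956 it measured 1873 bp, with H3K27ac folds of 5.62 and 5.25 and H3K27me3 folds of 10.93 and 15.30 in replicates 1 and 2. Its neighbour chr11:88831237-88832317, in the same H3K27me3 region of 3608 bp, had 1080 bp, H3K27ac folds of 5.94 in both replicates and the same H3K27me3 folds. The input under these neighbours was 6.15 to 7.24 times the median. Both marks were thus called there over DNA that was also abundant in the input.

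Other long stretches had a lower input. The region chr2:167545949-167548045, 2097 bp wide, had 897 bp in 1 run in all 4 libraries, H3K27ac folds of 14.62 and 11.49, H3K27me3 folds of 6.12 and 5.46, and an input of 1.04 and 1.03 times the median. Its acetylation was above the upper quartile of the other H3K27ac regions in both libraries, and its H3K27me3 fold was above the upper quartile of the other H3K27me3 regions (5.90 in both libraries) in replicate 1 and below it in replicate 2. The region chr6:89228946-89230165 had 951 bp, H3K27ac folds of 13.26 and 10.01, and H3K27me3 folds of 12.02 and 5.46, with an input of 1.41 and 1.42. The region chr2:30643170-30644337 had 1074 bp, H3K27ac folds of 6.94 and 6.29, and H3K27me3 folds of 9.40 and 6.34, with an input of 1.92 and 2.10. In both of these the H3K27me3 fold was higher in replicate 1.

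The remaining 5 of the 10 longest were chr6:29029998-29030989 (920 bp), chr8:129160591-129161623 (895 bp), chr11:3026839-3027736 (879 bp), chr6:28948043-28949018 (841 bp) and chr6:133923504-133924650 (796 bp). All 10 lay inside their H3K27me3 regions, and 4 were on chromosome 6. The region chr11:3026839-3027736 sat in an H3K27me3 region of 22393 bp with folds of 37.81 and 36.50, had H3K27ac folds of only 3.96 and 4.05, and had an input of 12.0 and 12.3 times the median.

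The region with the highest value for its weaker mark was chr5:33072074-33073044. It had H3K27ac folds of 9.48 and 11.38 and H3K27me3 folds of 10.05 and 10.27, so that both marks were above 9 in all 4 libraries, with an input of 4.10 and 3.51 times the median. The region chr10:80639341-80641207 had H3K27ac folds of 8.70 and 11.12 and H3K27me3 folds of 10.05 and 8.96, with an input of 1.37 and 2.65. The region chr6:145968037-145968547 had H3K27ac folds of 8.96 and 8.98 and H3K27me3 folds of 20.98 and 14.86, with an input of 6.56 and 5.99. These 3 had high H3K27me3 folds, which are not corrected for local input, in both H3K27me3 libraries, and in each the input was above 2 times the median in at least 1 H3K27ac library.

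The other 7 of these 10 leaned on H3K27me3 replicate 1. At chr8:123693507-123694058 the H3K27me3 folds were 13.55 and 5.46. At chr3:122105613-122106450 they were 12.89 and 5.46, at chr3:108550735-108550905 they were 13.11 and 6.12, and at chr11:75091133-75091709 they were 12.24 and 5.90. At chr17:45368377-45369046 they were 11.58 and 5.46, at chr6:25407699-25407879 they were 11.36 and 6.56, and the last is chr6:89228946-89230165, given above. In all 7 replicate 1 exceeded replicate 2 by more than 1.5 times, and their input lay between 0.93 and 1.62 times the median. The region chr6:25407699-25407879 had no base in all 4 libraries.

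Some H3K27me3 regions held several acetylated islands. Of the 598, 511 held 1 dual-marked region, 64 held 2, 16 held 3, 6 held 4 and 1 held 7. The 87 with 2 or more held 206 dual-marked regions. All 7 with at least 4 were on chromosome 6. The one with 7 islands was chr6:42479599-42485694, 6096 bp wide, with H3K27me3 folds of 9.40 and 5.46. The last of its islands was the widest dual-marked region of all, chr6:42484285-42492166, 7882 bp wide with H3K27ac folds of 9.69 and 10.48. This island ran on past the edge of chr6:42479599-42485694 and overlapped 2 H3K27me3 regions, with which it shared 2466 bp in all. Of the 6 with 4 islands, chr6:42508734-42515083 lay closest to it. Conversely, 6 dual-marked regions overlapped 2 H3K27me3 regions each.

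Regions just inside and just outside the threshold of 1 bp had the following values. The 5 dual-marked regions with the shortest overlap shared 9, 11, 12, 14 and 17 bp with H3K27me3. They were chr6:101332141-101332770, chr6:48585725-48586096, chr15:10727906-10728215, chr6:120072383-120072720 and chr11:4224486-4224667, and none had a base in all 4 libraries. Their H3K27ac folds ran from 6.99 to 10.07 in replicate 1 and from 5.37 to 8.55 in replicate 2. The 5 regions just outside lay 2, 4, 7, 8 and 18 bp from H3K27me3, at chr6:67038050-67038789, chr17:80207971-80208219, chr3:107657266-107657826, chr6:126694239-126694678 and chr6:87303918-87304343. Their H3K27ac folds ran from 4.24 to 7.88 and from 6.96 to 9.43.

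Dual-marked regions had fewer acetylated neighbours than other H3K27ac regions. The nearest other H3K27ac region lay at a median of 1896 bp from a dual-marked region, against 400 bp for the other H3K27ac regions. Within 1000 bp, 282 of 712 dual-marked regions (39.6%) had such a neighbour, against 24067 of 35943 (67.0%). On chromosome 6 the shares were 58.2% and 72.4%, and without it 28.4% and 66.6%. The median distances there were 700 and 297.5 bp on chromosome 6 and 3532.5 and 408 bp without it. With H3K27me3 replicate 1 alone, 30.4% of regions with a peak of it had a neighbour within 1000 bp, against 68.2% of the rest. With H3K27me3 replicate 2 alone it was 42.1%, against 67.0%. The H3K27ac profile gave the same picture at single positions. At 1 kb before the summit of regions that lay inside, 12.5% and 12.3% of positions were in an H3K27ac peak of replicates 1 and 2, against 30.0% and 31.2% for the other H3K27ac regions. Regions at an edge had 29.0% and 30.1% on the unmethylated side.

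SOX10 binding took no part in the choice of the regions. A SOX10 site overlapped 8 of 712 dual-marked regions (1.12%, 0.570 to 2.20%), while 9.66% of all H3K27ac regions overlapped one, and 3532 of 35943 of the other H3K27ac regions (9.83%). Without chromosome 6 there were 4 of 444 (0.901%, 0.351 to 2.29%), while 9.53% of all H3K27ac regions overlapped a SOX10 site. On chromosome 6 there were 4 of 268 (1.49%), against 12.5% of the other H3K27ac regions. Single libraries showed the same order, with SOX10 peaks of replicate 1 at 9 dual-marked regions (1.26%), against 11.3% of the others, and of replicate 2 at 18 (2.53%), against 17.3%. At a stricter MACS p (a value of at least 100, with the authors' cutoff at 50) the share was 4 of 150 dual-marked regions (2.67%, 1.04 to 6.66%), beside 5.45% of all H3K27ac regions, which lies within that interval. No test of the difference was made, because regions of the same libraries are not replicates.

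The H3K27me3 libraries gave the same low shares one at a time. Among H3K27ac regions that were not dual-marked, 9 of the 1055 with an H3K27me3 peak of replicate 1 only (0.853%) had a SOX10 site, and 2 of the 173 with one of replicate 2 only (1.16%). Of the 34712 with no H3K27me3 peak, 3521 (10.1%) had one. With all peaks of one library as regions, 1.02% of dual-marked regions had a SOX10 site without H3K27me3 replicate 1 and 0.814% without H3K27me3 replicate 2. Without H3K27ac replicate 1 and without H3K27ac replicate 2 it was 0.322% and 0.475%, beside 6.45% and 6.71% of all peaks of the H3K27ac library that was kept.

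These classes also differed in the strength and spacing of their acetylation. The regions with an H3K27me3 peak of replicate 1 only had a median H3K27ac fold of 7.80, and 25.4% of them lay within 1000 bp of another H3K27ac region. Those with an H3K27me3 peak of replicate 2 only had 7.55 and 49.1%, and those with no H3K27me3 peak had 8.65 and 68.3%. The part of weaker and more isolated acetylation in the SOX10 difference was not tested. When H3K27ac regions with less than 1 kb between them were joined, there was a SOX10 share of 4.15% among dual-marked regions, beside 10.8% of all merged H3K27ac regions.

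The SOX10 sites at dual-marked regions were found at edges. None of the 519 dual-marked regions inside an H3K27me3 region overlapped a SOX10 site, which allows a share of up to 0.578%. At an edge it was 8 of 186 (4.30%, 2.20 to 8.26%), with 4 of 87 on chromosome 6 and 4 of 99 elsewhere. None of the 7 that enclosed a region had one. Over all H3K27ac regions the share was higher farther from H3K27me3. It was 22 of 466 (4.72%) for H3K27ac regions 1 to 1000 bp away, 8.23% beyond that up to 5000 bp, 10.2% up to 10000 bp, 9.74% up to 50000 bp and 10.2% beyond 50000 bp. Without chromosome 6 the same steps gave 0.901% at overlap and then 6.06%, 6.76%, 9.86%, 9.53% and 10.1%. On chromosome 6 they gave 1.49% and then 2.97%, 12.4%, 12.7%, 12.9% and 16.5%. Without chromosome 6 the median H3K27ac fold at these steps was 7.73 at overlap and then 8.03, 8.53, 8.65, 8.66 and 8.66. On chromosome 6 it was 6.83 at overlap and then 6.94, 7.18, 7.46, 7.45 and 7.08. The part of the H3K27ac fold in the SOX10 shares was not tested.

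**Figure D5:**
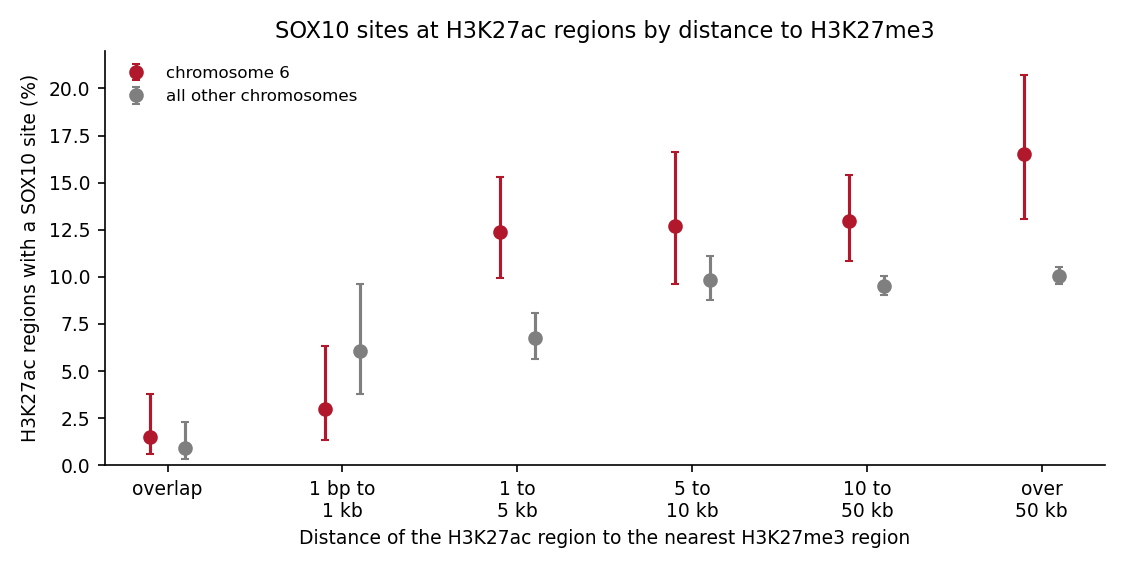
Percent of H3K27ac regions with a SOX10 site (y axis, Wilson 95% intervals) by distance to the nearest H3K27me3 region (x axis, overlap at the left), for chromosome 6 and for all other chromosomes. The share on chromosome 6 is 1.49% at overlap and 16.5% beyond 50000 bp, and on the others 0.901% and 10.1%.

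The difference was smaller over wider distances. A SOX10 site lay within 1000 bp of 2.67% of dual-marked regions, against 15.1% of other H3K27ac regions. Within 5000 bp it was 12.2%, against 26.1%, and within 10000 bp it was 21.8%, against 33.3%. Within 50000 bp it was 55.8%, against 57.4%, where the counting interval of the dual-marked regions (52.1 to 59.4%) held the value of the others.

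All 8 dual-marked regions with a SOX10 site lay across an edge. The SOX10 summit, the position of strongest SOX10 enrichment, was outside any H3K27me3 region in each of them. It lay 566 to 5364 bp from the nearest one, which was not always the one that the dual-marked region overlapped. Only 2 of the 8 SOX10 sites shared a base with H3K27me3 at all, and 2 of the dual-marked regions had a base in all 4 histone libraries. The strongest site was at chr6:72918964-72919550, with SOX10 folds of 31.62 and 36.08 (33.9 ± 3.15, SD, n = 2), H3K27ac folds of 5.97 and 6.15 and H3K27me3 folds of 6.12 and 7.21. Next was chr7:150511649-150512528, with SOX10 folds of 23.78 and 26.19. Both were well above the median SOX10 fold of 11.2 over all sites, and their H3K27ac folds of 5.97 to 9.62 were not high.

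The other 6 had SOX10 folds around or below 18. At chr16:94054719-94055386 they were 17.89 and 13.93, and at chr6:42484285-42492166, the widest dual-marked region, 17.74 and 14.13. At chr14:70038250-70038975 they were 9.71 and 16.35, and at chr6:101332141-101332770 they were 9.25 and 16.18. The last 2, chr6:108619040-108619553 with 11.89 and 11.01 and chr9:107455779-107456522 with 6.59 and 6.10, were near or below the median of all sites. At chr6:101332141-101332770, which shared only 9 bp with H3K27me3, the SOX10 summit was inside an H3K27ac region. The SOX10 summit at chr6:108619040-108619553 was also inside an H3K27ac region, but not inside this dual-marked one. For the other 6 it lay 2 to 500 bp from the nearest H3K27ac region, which was not always the dual-marked one.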

How the data were processed

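The authors called peaks in each library separately with MACS 1.4.2 at a p cutoff of 1e-05, per the file headers. No aligner is named in the sources used here, and the build is mm9, per the submitters' processing notes. Per the file headers, input windows of 1000 and 10000 bp set a local background for H3K27ac and SOX10, while for H3K27me3 no local background was used, so its fold is relative to a genome-wide background. The assumed shift between strands was 50 and 51 bp for H3K27ac, per the file headers, near the tag length of 51 bp, so its peaks can be narrow or split. Both histone antibodies were called against 1 shared input. Each deposited list gives the count of tags per peak, the deposited -log10 p on a scale 10 times larger, the authors' fold enrichment (a ratio of ChIP to background at the summit), and the authors' FDR in percent.

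The consensus rule is given with the results, and the fold of a region is the highest of its peaks in a replicate, averaged over both replicates where 1 value is given. The input background of an H3K27ac peak was taken as the mean of the Poisson distribution in which its tag count has its p, for peaks with a deposited value below 3000, and divided by the median of the list. Overlaps needed 1 bp. Wilson intervals are at 95%, and a count of 0 allows 3 counts. Region arithmetic was tested on simulated data. Python 3.11.15, numpy 2.4.6, pandas 2.3.3, scipy 1.17.1 and matplotlib 3.10.9 were used. No test across libraries was made, since an exact permutation test of 2 libraries against 2 cannot pass 0.05 and regions are not replicates.

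The regions and lists were chosen with earlier results of these data known. Named were the 10 regions with the longest stretch in all 4 libraries, the 10 with the highest smaller mean fold, each one with a SOX10 site, and the 5 on either side of the threshold. Region chr6:42479599-42485694 and others that held most regions were named after their values were seen. Gene starts, gene lists and sequences were not used here. Alternatives were another overlap, stricter p or FDR, bases of both replicates only, merged H3K27ac regions, each library left out, and no chromosome 6.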

Additional observations from a re-analysis of the deposited data

How the results depend on the processing

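No paired analysis was possible because the results come from no test, and a shared replicate number only names libraries of different antibodies. Of the values recomputed under alternatives, 39 moved by more than their spread over the 4 library pairs (counts by over 1.5 times) and 49 did not; the cause was not tested. At a -log10 p times 10 of at least 100 there were 150 dual-marked regions (84 without chromosome 6), 2.67% had a SOX10 site, beside 5.45% of all H3K27ac regions, and the median H3K27ac fold was 7.63. At an FDR of at most 1%, which 99.97% and 99.99% of the strongest 10% of H3K27me3 peaks in replicates 1 and 2 exceed, there were 63 (47 without chromosome 6; 0.175% of H3K27ac regions), 0% had a SOX10 site, 39.7% lay inside and the median fold was 7.68. With at least 50% of the shorter region shared, 0.628% had a SOX10 site. With the H3K27ac summit inside the H3K27me3 region, 0.161% had one and 83.4% lay inside. With bases of both replicates only, the values were 0.168% and 61.4%. With merged H3K27ac regions they were 4.15% and 63.1%, with a median fold of 7.78. Without chromosome 6 they were 0.901% with a SOX10 site and a median fold of 7.73. With a base in all 4 histone libraries, an alternative chosen after seeing the data, they were 0.393% and 82.7%. Leaving out 1 library gave 783 to 1864 regions (2.09 to 4.69%), 482 to 1387 without chromosome 6 (1.42 to 4.07%), 0.322 to 2.53% with a SOX10 site, 35.9 to 81.7% inside and a median fold of 6.86 to 7.66. The 0 of 63 at FDR 1% allows up to 4.76% with a SOX10 site, and all H3K27ac regions had 3.50%, so it shows no difference. Leaving out dual-marked regions with an input over 2 times the median, also chosen after seeing the data, moved no value by that much. The share of dual-marked regions at a gene start and its alternatives were not run, since no annotation of mm9 was used here. The depth of the SOX10 libraries limits which SOX10 sites could be called.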
